A study of Mus musculus with 18 samples.

Results

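The 74 microRNA genes described here are the genes typed as miRNA that had at least 1 FPKM in at least 3 of the 12 cell libraries. FPKM is the number of sequenced fragments per kilobase of gene model, scaled to the depth of the library. The table lists 2207 genes of that type among 55183 genes, and 12510 genes of every type passed the same level rule. The libraries were made from PTCP53 304 cells, a mouse line labelled as SHH MB, the sonic hedgehog group of the cerebellar tumour medulloblastoma, with the genotype Ptch1+/-; Trp53-/- in every group. The cells received vehicle or CT-179, a small molecule that inhibits OLIG2, a transcription factor of neural progenitors, for 24 h (day 1) or 144 h (day 6), with 3 libraries in each of the 4 groups. The sequencing used a SMARTer mRNA kit on column-purified total RNA, with read pairs of 100 bases. The labels give 1 cell line for all 12 libraries and do not say that replicates came from separate cultures, so p-values measure the spread between these libraries, which may be technical. The levels chose the members, so the levels are given as a description, and a member that passed through 1 group alone had to differ between groups.

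MicroRNAs begin as long primary transcripts made by RNA polymerase II. Drosha and its partner Dgcr8 cut a hairpin out of the primary transcript, Xpo5 exports the hairpin, and Dicer1 trims it to the short mature strand that is loaded into an Argonaute protein. Bases 2 to 8 of the mature strand, the seed, pair with target messenger RNAs. Many microRNA hairpins lie in introns of protein-coding genes or of long noncoding RNAs and are transcribed with that host, so reads over a hairpin model can come from the unspliced host or primary transcript. An FPKM of such a model is therefore not a measure of the mature microRNA. In neural tissue, miR-9 is known for its part in progenitor proliferation and differentiation, and the cluster that holds miR-25 lies within the replication helicase gene Mcm7.

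RefSeq (GRCm38.p6) gave mature sequences for 45 of the 74 members, 69 sequences in all with 69 distinct seeds, so no seed was shared among these 45. The other 29 members were not compared by seed. The sequences below belong to members whose values carry the comparisons. The seed is in capitals, 5′ to 3′. The first 11 lines are products of 8 members that passed the test for CT-179 and lie in host introns.
miR-5125: uCUGCCUGggauuuccuugu
miR-7a-5p: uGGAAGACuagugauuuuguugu
miR-3093-5p: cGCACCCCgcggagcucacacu
miR-3093-3p: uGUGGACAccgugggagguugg
miR-3060-5p: gGGAGUGCuucgugcuucug
miR-3060-3p: cCAUAGCAcagaagcacuccca
miR-6993-5p: aGUGGGAGaaacgggugucuguc
miR-1898: aGGUCAAGguucacaggggauc
miR-1291: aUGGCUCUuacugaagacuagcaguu
miR-6991-5p: uGGAGAACagggacugggccug
miR-6991-3p: gCAGCCCUuuguucuucuccag
The next is from Mir351, which passed the test and has no containing gene, and the last 3 are from Mir9-1, a neighbour of Mir3093, and from Mir25 and Mir186, whose levels are compared with those of their hosts.
miR-351-5p: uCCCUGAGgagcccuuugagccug
miR-9-5p: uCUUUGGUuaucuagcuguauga
miR-25-3p: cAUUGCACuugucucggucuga
miR-186-5p: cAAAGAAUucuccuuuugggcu
The seed of miR-5125 was carried by 1 mouse gene in the RefSeq table, while the miR-351-5p seed was carried by 6 and the miR-25-3p seed by 7.

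By position in the mm10 assembly, checked against GENCODE M21, 32 members lay in an intron of a gene on the same strand and 10 overlapped an exon of a gene on the same strand. A further 12 overlapped an exon of a gene on the opposite strand, 4 lay in an intron of a gene on the opposite strand, and 16 had no containing gene in the table. The strand setting of the authors' counting is not given in the sources used here, so reads of a member and of a gene that overlaps it, on either strand, cannot be told apart. Names beginning Mir were carried by 46 members and names beginning Gm by 27, and the remaining member, Snord43, has the name of a small nucleolar RNA although the table types it as miRNA.

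Most members were barely read. The median FPKM over the 12 libraries was under 2 for 51 members and at least 10 for 9 members. Low FPKM values were whole multiples of the value of 1 fragment for 91.6% to 93.0% of values in each library (within 0.1 of a fragment, up to 20 fragments), and those steps place the normalising totals at 22142830 to 53096645 fragments. One fragment on a gene of 80 bases was then worth 0.235 to 0.565 FPKM. Over the 74 members the middle value of the median fragment count was 3.5, and 32 members had at most 10 fragments in every library. At the edge of the level rule, the third highest FPKM was 1.07 for Mir5119, 1.03 for both Mir7655 and Mir6942 and 1.01 for Gm27320, which were kept. It was 0.997 for Mir1907, 0.995 for Mir7237, 0.990 for Gm38671 and 0.871 for Mir7027, which were not.

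One library stood apart. CT-179 144 h replicate 2 had a lowest within-group correlation of log2(FPKM + 1) over genes of 0.941, while in each of the other 3 groups no pair was below 0.996. CT010467.1, a gene the table types as rRNA, was at 476 to 626 FPKM in vehicle and 832 to 1277 FPKM with CT-179 at 24 h. At 144 h it was at 311 to 472 FPKM in vehicle and at 544, 2069 and 951 FPKM with CT-179, so every CT-179 library was above every vehicle library of its time. The part of that difference in the results below was not tested. The tumour label was met in part: 12 of 16 sonic hedgehog medulloblastoma and granule precursor markers passed the level rule, while Atoh1, Barhl1, Neurod1 and Sfrp1, of which Atoh1 is the defining granule precursor factor, stayed under 1 FPKM in all 12 libraries. Microglial, endothelial and blood markers were all under 1 FPKM, and Olig2 itself was at 180 to 411 FPKM. All 5 astrocyte markers passed the level rule, as did 4 of 5 oligodendrocyte precursor, 2 of 5 neuron and 3 of 4 fibroblast markers.

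The 24 h comparison asked for the early effect of the inhibitor. Across the members the level was more often lower than higher with CT-179: the log2 change was below 0 for 56 of 74 members, with a median of -0.37 against -0.01 over all 12510 genes tested. The share of all genes below 0 was not counted. The level rule could also have favoured members that were higher in vehicle, so this lean is a description only. After adjustment over all genes (limma on log2(FPKM + 1), Benjamini-Hochberg), 1 member was called, Mir5125, which was lower, and none was called higher. The background was 0.264% of all genes called lower. At an unadjusted p under 0.05 the test gave 19 members (25.7%) against 5.12% of all genes. The groups did not overlap and CT-179 was the lower for 20 members (27.0%) against 22.9% of all genes, and the higher for 5 members (6.76%) against 14.5% of all genes. The number of genes typed as miRNA with at least 1 FPKM was 56, 56 and 57 in the vehicle libraries and 29, 37 and 31 in the CT-179 libraries, so the groups did not overlap. The same count over all genes was not made, and 1 FPKM is also the level that chose the members. One fragment on a gene of 80 bases was worth 0.394, 0.377 and 0.565 FPKM in vehicle and 0.235, 0.404 and 0.338 FPKM with CT-179. The level was therefore a few fragments, and not the same number in each library. In these bulk samples fewer expressing cells and less RNA per cell cannot be told apart.

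Mir5125 (ENSMUSG00000092981.1, chr17:23823291-23823369, plus strand) lies in an intron of Srrm2, which encodes a large serine and arginine rich protein of the spliceosome. Its level was 38.9, 42.2 and 26.2 FPKM in vehicle and 9.26, 9.77 and 4.78 FPKM with CT-179 at 24 h. The lowest vehicle library was well above the highest CT-179 library, and the fragments behind these values numbered 98, 110 and 46 in vehicle and 39, 24 and 14 with CT-179. Mir5125 fell by 2.07 on the log2(FPKM + 1) scale (SE 0.24, limma adjusted p = 0.020). The call was lost when vehicle 24 h replicate 1 or 2, CT-179 24 h replicate 1 or 2, or vehicle 144 h replicate 3 was left out. Without CT-179 144 h replicate 2, whose spread enters the shared error, 15 of 73 members were called lower and 1 higher, against 14.1% and 8.08% of all genes. The 15 were Mir5125, Mir7-1, Mir3093, Mir3060, Mir9-1, Mir25, Mir186, Mir343, Mir1249, Mir344i, Mir6993, Gm25315, Gm25749, Gm27616 and Gm27943, and the member called higher was Gm24245.

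At 144 h, the late effect, 13 members were called lower and none higher (17.6% of 74), against 3.37% of all genes called lower and 0.512% called higher. At an unadjusted p under 0.05 the test gave 33 members (44.6%) against 29.2% of all genes. The 13 were Mir5125, Mir7-1, Mir1898, Mir3093, Mir3060, Mir6991, Mir6993, Mir1291, Mir351, Gm27616, Gm24366, Gm25749 and Gm27320. The median log2 change over the members was -0.49, against -0.05 over all genes. Mir351 and Gm27320 reached 1 FPKM only in vehicle at 144 h, so they had to differ. Another 11 members called lower reached 1 FPKM in at least 2 groups, where 1 library was enough for a group. That does not free them from the level rule, since vehicle at 144 h could still have carried a member past it. Vehicle and CT-179 did not overlap at 144 h, with CT-179 the lower, for 26 members (35.1%) against 27.0% of all genes, and CT-179 was the higher for 3 members (4.05%) against 19.1% of all genes.

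**Figure D1:**
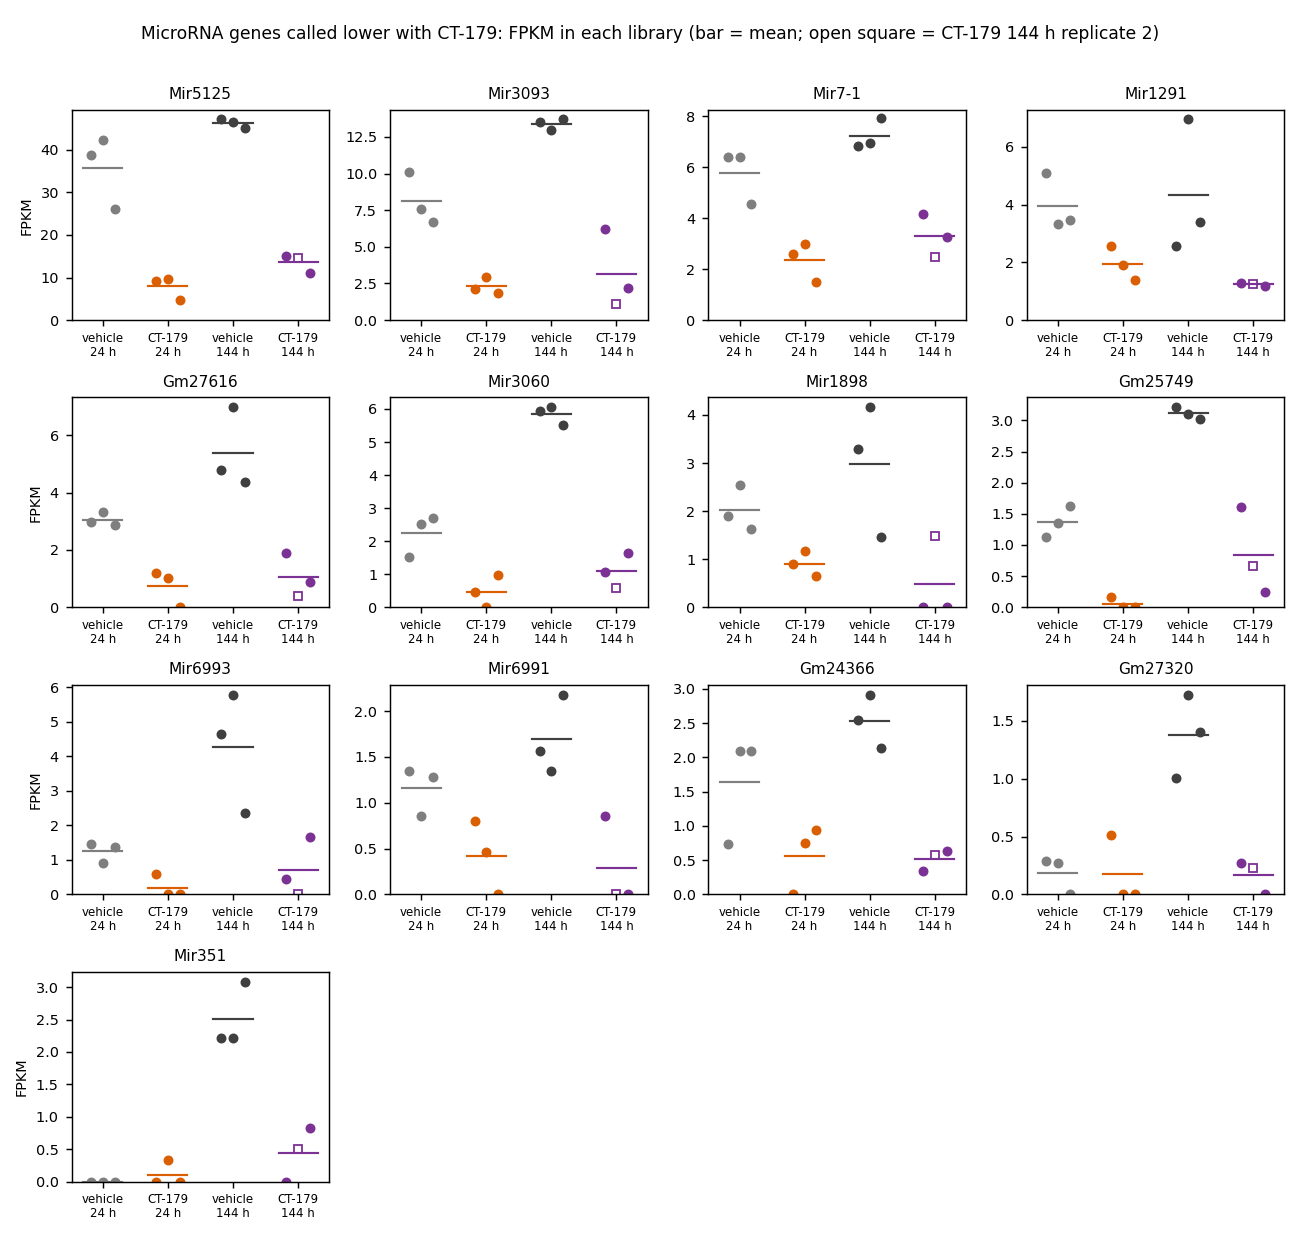
FPKM (vertical axes, each from 0) in each of the 12 libraries for the 13 microRNA genes called lower with CT-179, grouped by treatment and time. Points are libraries, bars are means and the open square is CT-179 144 h replicate 2. The 144 h groups did not overlap in 12 of the 13, the exception being Mir1898. The 13 were picked by the test on these same values, so this adds no support. Of all genes, 27.0% were lower with CT-179 at 144 h without overlap.

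Of the 13, 10 lie in an intron on the same strand, and all of these hosts but the one of Mir3093 are protein-coding genes. Mir5125 was at 47.2, 46.5 and 45.2 FPKM in vehicle and 15.1, 14.6 and 11.0 FPKM with CT-179 at 144 h, and fell by 1.71 (SE 0.24, limma adjusted p = 0.0045). Mir7-1 (chr13:58392779-58392886, minus strand), which gives miR-7a from an intron of the RNA-binding protein gene Hnrnpk, was at 6.85, 6.97 and 7.92 FPKM in vehicle and 4.2, 2.5 and 3.3 FPKM with CT-179. It fell by 0.95 (SE 0.19, limma adjusted p = 0.0255). At 24 h its levels were 6.39, 6.40 and 4.58 FPKM in vehicle and 2.6, 3.0 and 1.5 FPKM with CT-179, with no overlap, but the adjusted p was 0.076.

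Mir3060 (chr11:4139364-4139446, plus strand) lies in an intron of the RING finger gene Rnf215. It was at 5.94, 6.05 and 5.52 FPKM in vehicle and 1.08, 0.590 and 1.64 FPKM with CT-179 at 144 h. All vehicle libraries were above all CT-179 libraries, and it fell by 1.73 (SE 0.25, limma adjusted p = 0.0055). Mir6993 (chr19:10191375-10191439, plus strand), in an intron of the fatty acid desaturase gene Fads1, was at 4.64, 5.79 and 2.35 FPKM in vehicle and 0.460, 0 and 1.68 FPKM with CT-179. It rested on 5 to 12 fragments in vehicle and at most 4 with CT-179, and fell by 1.68 (SE 0.36, limma adjusted p = 0.032).

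Mir1291 (chr15:98519762-98519878, minus strand), in an intron of Kansl2, a subunit of a histone acetyltransferase complex, was at 2.58, 6.97 and 3.39 FPKM in vehicle. With CT-179 at 144 h it was at 1.28, 1.26 and 1.16 FPKM, close together and below every vehicle library. Mir1898 (chr15:12171492-12171574, plus strand), in an intron of the RNA-binding protein gene Zfr, was at 3.30, 4.16 and 1.47 FPKM in vehicle and 0, 1.48 and 0 FPKM with CT-179. Its highest CT-179 value came from replicate 2, the library that stood apart, and was just above the lowest vehicle value. Mir6991 (chr19:7422573-7422642, plus strand), in an intron of the gene 2700081O15Rik, was at 1.57, 1.34 and 2.18 FPKM in vehicle and 0.855, 0 and 0 FPKM with CT-179, from at most 5 fragments in each of these libraries. These 3 fell by 1.16, 1.49 and 1.12 with limma adjusted p of 0.040, 0.048 and 0.048, close to the threshold. Under the alternative settings and left-out libraries the call was lost 12 times and kept 7 times for Mir1291, and lost 15 times and kept 4 times for each of Mir1898 and Mir6991. Gm27616 in Prrc2c and Gm24366 in Rnf166, hairpin models without a microRNA name, fell by 1.68 and 1.22. Like that of Mir6993, the call of Gm24366 was lost 12 times and kept 7 times.

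Mir3093 and Mir9-1 sit 1 after the other in an intron of the long noncoding RNA gene Gm3764, the host from which miR-9 is made at this locus. Mir3093 (chr3:88215171-88215257, plus strand) was at 10.1, 7.60 and 6.72 FPKM in vehicle and 2.16, 2.96 and 1.86 FPKM with CT-179 at 24 h. At 144 h it was at 13.5, 13.0 and 13.7 FPKM in vehicle and 6.19, 1.13 and 2.19 FPKM with CT-179, with no overlap at either time. Its fall at 144 h was 1.98 (SE 0.35, limma adjusted p = 0.014), and at 24 h the estimate was -1.45 with adjusted p = 0.20. Mir9-1 (chr3:88215598-88215686, plus strand) was at 3.52, 2.36 and 2.52 FPKM in vehicle and 0.632, 0.361 and 0.909 FPKM with CT-179 at 24 h, a difference of -1.22 (SE 0.34, adjusted p = 0.31). At 144 h Mir9-1 was at 7.70, 3.52 and 3.09 FPKM in vehicle and 3.36, 0.826 and 2.14 FPKM with CT-179, and the groups overlapped.

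Gm3764 itself was at 31.5, 31.8 and 27.4 FPKM in vehicle and 12.3, 12.8 and 11.4 FPKM with CT-179 at 24 h. It was at 36.1, 36.8 and 35.1 FPKM in vehicle and 17.9, 17.6 and 14.1 FPKM with CT-179 at 144 h. The host fell by 1.25 at 24 h (limma adjusted p = 0.0011) and by 1.08 at 144 h (adjusted p = 0.000725), and CT-179 144 h replicate 2 was close to replicate 1 here.

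Outside introns, Gm25749 (chr3:80692203-80692313, minus strand) overlaps an exon of Gria2, an AMPA-type glutamate receptor subunit. It was at 3.21, 3.11 and 3.03 FPKM in vehicle and 1.62, 0.662 and 0.246 FPKM with CT-179 at 144 h and fell by 1.23 (SE 0.21, limma adjusted p = 0.012). Gria2 fell with it, by 1.02 (adjusted p = 0.0027). Mir351 (chrX:53053255-53053353, minus strand) has no containing gene and belongs to the X-linked cluster with Mir322 and Mir503. Mir351 was at 2.21, 2.22 and 3.09 FPKM in vehicle and 0, 0.495 and 0.826 FPKM with CT-179 at 144 h, and was listed at 0 in all 3 vehicle libraries at 24 h. Gm27320 (chr8:105307792-105307900, minus strand), opposite part of an exon of Elmo3, was at 1.01, 1.73 and 1.40 FPKM in vehicle and 0.274, 0.225 and 0 FPKM with CT-179 at 144 h.

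The count of 13 at 144 h depended on single libraries. It was 3 without vehicle 144 h replicate 1, 2 or 3, 8 without vehicle 24 h replicate 2 or 3 or CT-179 24 h replicate 2, and 23 without CT-179 144 h replicate 1 or 2. A fit of the 144 h groups alone called none, and the median-of-ratios and TPM scalings gave 11 and 10. Apart from the fit without CT-179 144 h replicate 2, the share of all genes called is not given here. Without CT-179 144 h replicate 2, 21 of 73 members were called lower and 2 higher (Gm22953 and Mir703), against 16.9% and 11.8% of all genes. Of the 15 members lower at 24 h in that fit, 11 were also lower at 144 h. Cell type markers moved unevenly between the 144 h groups. The 5 oligodendrocyte precursor markers summed to 633 to 652 FPKM in vehicle and 695 to 824 FPKM with CT-179, but of the 4 that passed the level rule Olig1 was higher without overlap, Cspg4 was lower without overlap, Olig2 and Pdgfra overlapped, and none was called. Sox10 was under 1 FPKM throughout. The 5 astrocyte markers summed to 1037 to 1055 FPKM in vehicle and 1025 to 1165 FPKM with CT-179. Of these, 1 was higher and 1 lower without overlap, with 1 called higher and none lower. The 16 medulloblastoma and granule precursor markers summed to 129 to 131 FPKM in vehicle and 79.8 to 121 FPKM with CT-179, and of the 12 that passed the level rule 6 were lower and 2 higher without overlap, with 1 called lower and none higher. Their part in the result was not tested.

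The difference between the effect at 144 h and that at 24 h was called by limma for no member and for none of the 12510 genes tested, with 5 members (6.76%) and 4.59% of all genes at an unadjusted p under 0.05. Mir351 had a difference of -1.45 on the log2(FPKM + 1) scale (adjusted p = 0.41), a size that depends on the pseudocount since it was at 0 in vehicle at 24 h. It also passed the level rule only through vehicle at 144 h, so the choice of members favoured this direction. Without CT-179 144 h replicate 2 it was the 1 member called lower (adjusted p = 0.026), with the same limit, against 1.46% of all genes called lower and 1.2% called higher. With no level rule, 22 of 29829 genes were called lower and 6 higher for this difference, among them 1 microRNA gene that is not a member, Mir132.

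By position, the members differed in their medians. In introns on the same strand, the median log2 change with CT-179 was -0.64 at 24 h and -0.85 at 144 h, and 10 of the 13 members called lower at 144 h were in this class of 32. For the 29 members of this class whose host passed the level rule, the median changes of the hosts were -0.11 and -0.18. Gm3764, which holds Mir3093 and Mir9-1, was counted once for each. The 10 members over exons on the same strand had medians of -0.98 and -0.75, with 1 called. The 12 members opposite an exon had medians of -0.11 and -0.29, also with 1 called, and the 16 with no containing gene had medians of -0.19 and -0.06, again with 1 called. The 4 members opposite an intron had a median of -0.10 at 24 h and 0.99 at 144 h, with none called. These classes were compared by their medians and counts alone, with no test of a difference between them.

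The host comparison asked whether a member moved apart from the gene around it. A host passing the level rule was found for 51 members, in 50 host genes, since Gm3764 holds both Mir3093 and Mir9-1. The member's log2 change was below that of its host for 39 of 51 pairs at 24 h and for 39 of 51 at 144 h. The same count over all nested small RNA genes was not made. Across the pairs, which share libraries and host reads, the changes of member and host had Pearson r = 0.45 and Spearman rho = 0.37 at 24 h and r = 0.36 and rho = 0.31 at 144 h, as a description over pairs that are not replicates. The difference between member and host was then fitted with limma over all 194 nested pairs of small RNA genes and hosts in the table. Adding 1 FPKM shrinks the change of a low member more than that of a higher host. A small difference on this scale therefore does not show that both changed by the same fold.

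**Figure D2:**
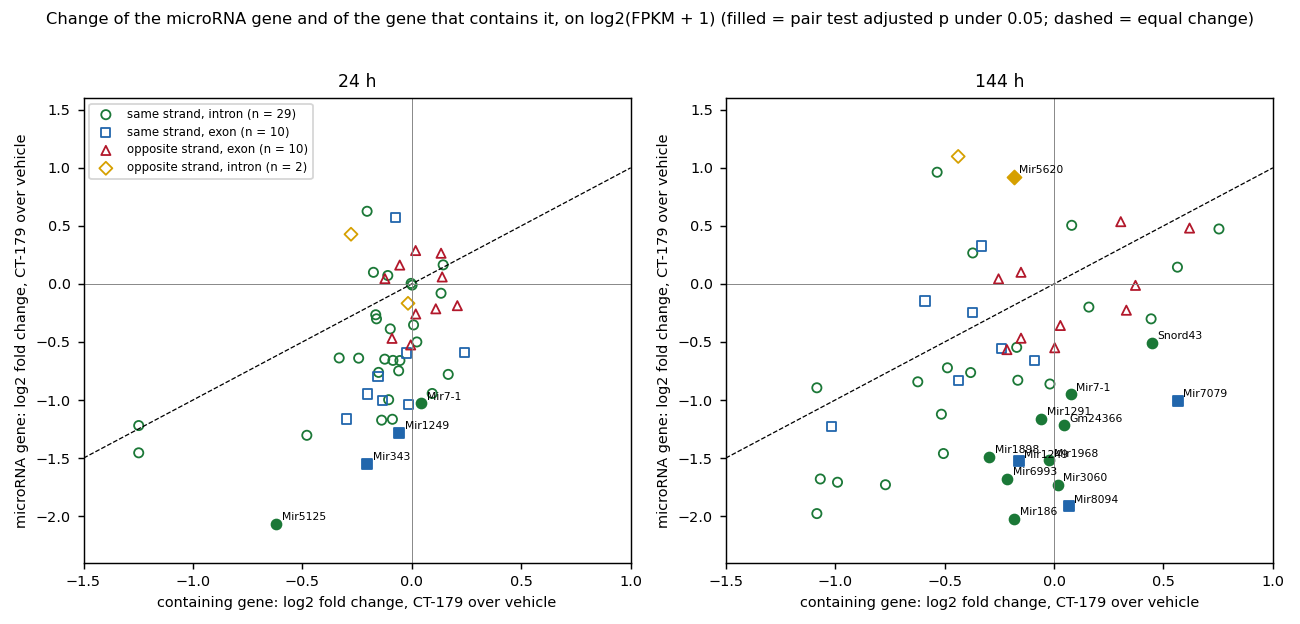
Log2 change with CT-179 over vehicle, on log2(FPKM + 1), of the host gene (horizontal axis) and of the microRNA gene inside it (vertical axis) at 24 h and 144 h. Each point is 1 of the 51 pairs, the shape and colour give the position and strand, filled points passed the pair test, and the dashed line marks equal change. Points lie below the line for 39 of 51 pairs at each time.

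At 24 h, 4 members were lower relative to the host and none higher (7.84% of 51), against 13.9% of all 194 pairs, so the members' share was not above the background. They were Mir5125 against Srrm2 (-1.45, SE 0.42, limma adjusted p = 0.036), Mir7-1 against Hnrnpk (-1.07, SE 0.32), Mir343 against Ercc2 and Mir1249 against 5031439G07Rik. Srrm2 was at 77.0, 77.8 and 78.2 FPKM in vehicle and 50.6, 49.3 and 50.8 FPKM with CT-179, a difference of -0.62. Hnrnpk was at 238 to 244 FPKM in vehicle and 243 to 251 FPKM with CT-179, and overlapped. Mir343 (chr7:19386643-19386717, plus strand), which overlaps in part an exon of the DNA repair and transcription helicase gene Ercc2, was at 2.51, 2.00 and 2.40 FPKM in vehicle and 0, 0.429 and 0 FPKM with CT-179. Ercc2 was at 13.1, 13.0 and 12.4 FPKM in vehicle and 11.3, 10.7 and 11.1 FPKM with CT-179. The count was 0 without vehicle 24 h replicate 1 or 2 or any 1 of the CT-179 24 h replicates, and 10 without CT-179 144 h replicate 2 (19.6%, against 27.3% of all pairs).

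At 144 h, 12 members were lower relative to the host and 1 was higher (23.5% and 1.96% of 51), against 38.1% and 1.03% of all pairs, so again the share was below that of nested small RNA genes at large. The 12 were Mir186, Mir8094, Mir3060, Mir6993, Mir1249, Mir1968, Mir1898, Gm24366, Mir1291, Mir7079, Mir7-1 and Snord43, and the 1 higher was Mir5620 with adjusted p = 0.04997 (0.225 without CT-179 144 h replicate 2). Mir3060 differed from Rnf215 by -1.75 (SE 0.38, limma adjusted p = 0.0042), where Rnf215 was at 38.5, 37.7 and 42.8 FPKM in vehicle and 37.0, 50.9 and 34.1 FPKM with CT-179. Mir7-1 differed from Hnrnpk by -1.03 (SE 0.32, adjusted p = 0.018) at levels of 142 to 144 FPKM in vehicle and 146 to 154 FPKM with CT-179 for the host. Mir7-1 and Mir1249 were the members called against the host at both times.

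Mir186 (chr3:157544279-157544349, plus strand) lies in an intron of the splicing factor gene Zranb2. It was at 11.6, 8.84 and 11.2 FPKM in vehicle and 5.06, 0 and 2.69 FPKM with CT-179 at 144 h, and the 0 came from replicate 2. Zranb2 was at 40.3, 40.4 and 42.2 FPKM in vehicle and 36.1, 34.1 and 37.9 FPKM with CT-179. The difference between them was -1.84 (SE 0.45, limma adjusted p = 0.0054), and -1.13 without replicate 2 (adjusted p = 0.022). Mir8094, over part of an exon of the RNA helicase gene Ddx39b, differed from it by -1.98, and Mir7079, over an exon of the ribosomal protein gene Rpl13, by -1.58.

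Mir3093 and Mir9-1 were not called against Gm3764. Mir3093 minus Gm3764 was -0.21 (adjusted p = 0.74) at 24 h and -0.89 (adjusted p = 0.065) at 144 h. Mir9-1 minus Gm3764 was 0.03 (adjusted p = 0.97) and 0.19 (adjusted p = 0.69). The added 1 FPKM shrinks changes at the low levels of Mir9-1 more than those of Gm3764, so these values do not show equal fold changes. Mir5125 minus Srrm2 at 144 h was -0.72 (adjusted p = 0.18), where Srrm2 was at 62.2, 66.3 and 65.1 FPKM in vehicle and 45.4, 15.9 and 44.9 FPKM with CT-179. Without CT-179 144 h replicate 2, the low library for Srrm2, the difference was -1.26 (adjusted p = 0.016). Mir1968 and Snord43 lost the call in that fit, with adjusted p of 0.18 for each, and 12 members were called lower there, against 25.8% of all pairs.

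Between 24 h and 144 h in vehicle, 16 members rose and 7 fell (21.6% and 9.46% of 74), against 34.1% and 32.4% of all genes, so a smaller share of members than of genes at large was called. Of the rises, 14 were among members at 1 FPKM in at least 1 library of at least 2 groups, which does not free them from the level rule. The groups did not overlap for 25 members higher and 11 lower at 144 h, against 44.6% and 42.9% of all genes. The median change was 0.31 over the members and 0.01 over all genes. Under CT-179, 13 rose and 5 fell, against 33.2% and 32.1% of all genes. Without CT-179 144 h replicate 2 the counts were 24 and 12 in vehicle, against 44.2% and 43.4% of all genes, and 21 and 7 under CT-179, against 43.9% and 41.7%, and the counts under CT-179 were 7 and 4 without CT-179 24 h replicate 2 or 3. Markers also changed between the times in vehicle, in both directions within 2 of the 3 lists. The oligodendrocyte precursor markers summed to 1014 to 1131 FPKM at 24 h and 633 to 652 FPKM at 144 h, with 3 called lower and 1 higher, Pdgfra, at 6.08 to 6.83 and then 21.1 to 21.7 FPKM. The 16 medulloblastoma markers summed to 361 to 366 FPKM and then to 129 to 131 FPKM, with 3 called lower and 5 higher. The sum followed the abundant cyclin genes Ccnd1 and Ccnd2, while the hedgehog pathway genes Gli1 (2.3 to 2.6, then 19.4 to 21.1 FPKM) and Ptch1 (3.45 to 3.98, then 24.5 to 26.3 FPKM) were higher at 144 h. The 5 astrocyte markers summed to 450 to 481 FPKM and then to 1037 to 1055 FPKM, with all 5 called higher. Their part in the change of the members was not tested.

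**Figure D3:**
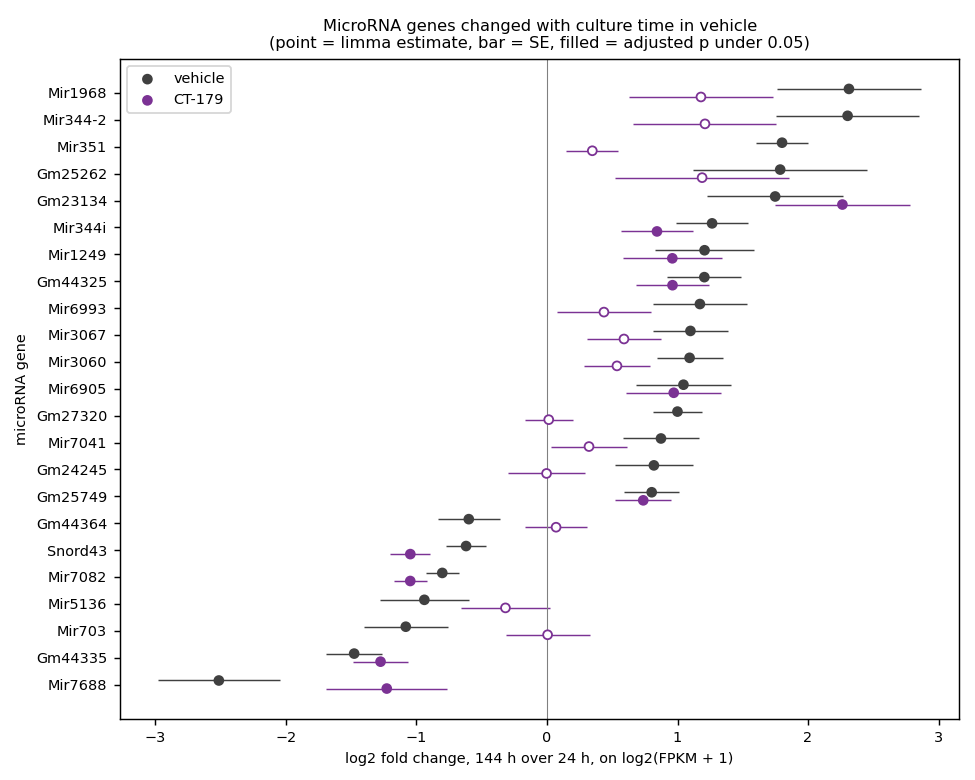
Log2 change from 24 h to 144 h, on log2(FPKM + 1), of the 23 microRNA genes called in vehicle, in vehicle and under CT-179. Points are limma estimates, bars are standard errors, and filled points have an adjusted p under 0.05. The changes in vehicle run from -2.51 for Mir7688 to 2.31 for Mir1968, and those of Mir351 and Gm24245 depend on the pseudocount, since both were at 0 in vehicle at 24 h.

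The largest rises in vehicle included a pair of intronic members whose hosts rose as well. Mir1968 (chr8:13189031-13189098, minus strand), in an intron of Grtp1, was at 0.922, 0.442 and 0.661 FPKM at 24 h and 11.3, 4.61 and 7.19 FPKM at 144 h. It rose by 2.31 (SE 0.55, limma adjusted p = 0.0037), and Grtp1 rose by 1.68. Mir344-2 (chr7:61940027-61940106, minus strand), in an intron of the long noncoding RNA gene A330076H08Rik, was at 0.392, 0.375 and 2.25 FPKM at 24 h and 8.22, 9.80 and 6.49 FPKM at 144 h. It rose by 2.30, and A330076H08Rik rose by 1.53. Mir344i, from the same chromosome 7 cluster, rose by 1.26, and Mir344f, from the same region and chosen after its values were seen, changed by 0.85 with an adjusted p of 0.075.

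Gm23134 (chr2:157562361-157562447, minus strand), in an intron of Blcap, was at 1.08, 0 and 2.07 FPKM at 24 h and 5.04, 5.05 and 5.62 FPKM at 144 h in vehicle. Its sequence is also present whole on the opposite strand of Nnat, an imprinted gene. Gm25262, with no containing gene, rose by 1.79, and Mir1249, Gm44325, Mir6993, Mir3067, Mir3060, Mir6905, Mir7041 and Gm25749 rose by 0.80 to 1.21. Mir1249 (chr15:84951526-84951623, minus strand) parted from its host, which fell by 0.45 while Mir1249 rose by 1.21. Mir351 and Gm24245 were listed at 0 in every vehicle library at 24 h, so their rises are given by their levels alone. Gm24245 was at 0, 1.65 and 1.07 FPKM in vehicle at 144 h. Mir351 and Gm27320 passed the level rule only through vehicle at 144 h, so they had to be higher there.

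The largest fall in vehicle was that of Mir7688 (chr10:93433107-93433162, plus strand), which has no containing gene. It was at 14.0, 17.2 and 18.5 FPKM at 24 h and 3.91, 0.560 and 2.73 FPKM at 144 h, and fell by 2.51 (SE 0.47, limma adjusted p = 0.00069). Gm44335 (chr9:44334965-44335105, minus strand) lies whole opposite the exon of the histone gene H2ax. It was at 2.89, 3.83 and 4.14 FPKM at 24 h and 0.583, 1.33 and 0.217 FPKM at 144 h, and fell by 1.48. H2ax fell by 2.42 between the same groups. Gm44335, Gm44364 and Gm44492 are 91.5% to 95.7% identical over 141 bases, and each lies opposite a histone H2A gene, so reads could be split among them and those genes.

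Mir7082 (chr9:21075497-21075588, minus strand) was at 171, 168 and 121 FPKM at 24 h and 87.9, 87.6 and 84.3 FPKM at 144 h in vehicle, and fell by 0.80 (limma adjusted p = 0.00020). Under CT-179 it was at 149, 158 and 157 FPKM and then 81.0, 66.8 and 76.1 FPKM, and the difference between treatments was 0.03 at 24 h and -0.22 at 144 h (adjusted p of 1 and 0.22). Mir703, Mir5136, Snord43 and Gm44364 fell by 1.08, 0.94, 0.62 and 0.60 in vehicle. Snord43 lies in an intron of the ribosomal protein gene Rpl3, which fell by 0.78. In vehicle the changes of member and host over the 51 pairs had r = 0.65 and rho = 0.51, again as a description.

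The highest member, Gm23935, is 1 of 5 short models that are near copies of each other. Their sequences are shown because a read from 1 of them could be assigned to any other, with GENCODE M21 sequences and differences from Gm23935 in capitals.
Gm23935: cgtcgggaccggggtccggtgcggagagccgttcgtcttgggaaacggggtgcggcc
Gm24187: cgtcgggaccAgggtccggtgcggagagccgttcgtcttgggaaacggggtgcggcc
Gm25911: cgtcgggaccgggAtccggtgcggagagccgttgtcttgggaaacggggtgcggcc
Gm24270 and Gm24245 have the same 57 bases as Gm23935. Counting from 1 at the 5′ end of Gm23935, Gm24187 carries G11A, and Gm25911 carries G14A and lacks 1 base. Gm23935, Gm24270, Gm24245, Gm24187 and Gm25911 lie, in that order, at chr16:11144125-11144181, chr9:56223715-56223771, chr4:139338304-139338360, chr13:9834469-9834525 and chr1:167340369-167340424.

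Gm23935 was at 1308, 1222 and 1067 FPKM in vehicle and 1759.4, 1939 and 1218 FPKM with CT-179 at 24 h. At 144 h it was at 940.2, 1357 and 1409 FPKM in vehicle and 1154, 6027 and 2539.8 FPKM with CT-179, so the highest value came from the library that stood apart. Gm24270, of identical sequence, was at 31.7 to 67.2 FPKM in the 9 other libraries outside CT-179 at 144 h, and at 42.0, 209 and 83.2 FPKM there. Gm24245, also identical, was at 0 to 1.65 FPKM. These levels are uncertain gene by gene, and the sum over the 5 genes was 1111 to 1374 FPKM in vehicle and 1305 to 2047 FPKM with CT-179 at 24 h. At 144 h the sum was 988 to 1489 FPKM in vehicle and 1226, 6361 and 2675 FPKM with CT-179.

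**Figure D4:**
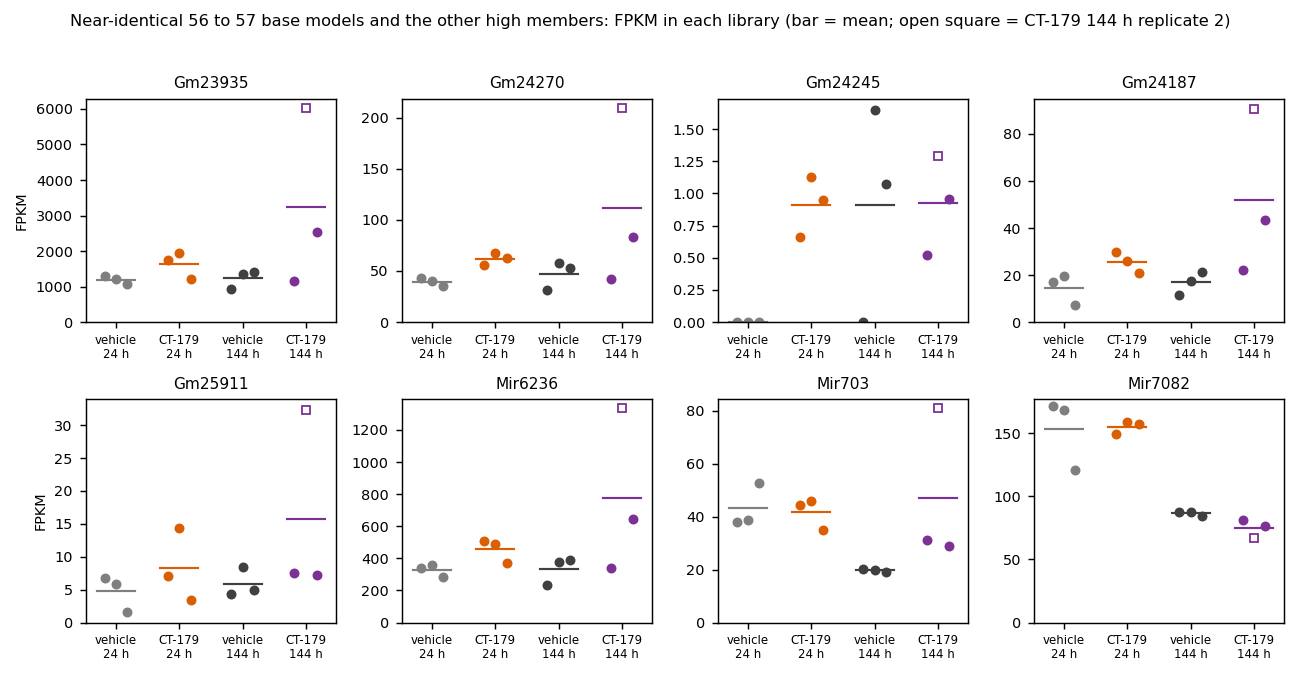
FPKM (vertical axes, each from 0) in each of the 12 libraries for the 5 near-identical models, Mir6236, Mir703 and Mir7082. Points are libraries, bars are means and the open square is CT-179 144 h replicate 2. That library is the highest for 4 of the 5 near-identical models, Mir6236 and Mir703, and the lowest for Mir7082.

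Mir6236 (chr9:110281287-110281409, plus strand), with no containing gene, followed the same order of libraries at 144 h, at 235, 380 and 387 FPKM in vehicle and 341, 1335 and 643 FPKM with CT-179. The rRNA gene CT010467.1 had its highest level, 2069 FPKM, in the same library. Neither Gm23935 (0.43 and 1.10) nor Mir6236 (0.47 and 1.03) was called with CT-179 at 24 or 144 h. Mir703 (chr5:98475556-98475664, minus strand), 96.4% identical to Gm26384, was at 20.1, 19.9 and 19.1 FPKM in vehicle and 31.0, 81.2 and 28.8 FPKM with CT-179 at 144 h, an adjusted p of 0.10. The remaining members with the highest medians, Gm24157 (chr11:52099043-52099153) opposite part of an exon of the phosphatase gene Ppp2ca and Mir5125, had median levels of 29.6 and 20.7 FPKM.

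Few genes of well-known microRNA families were members, but few microRNA genes of any kind were (74 of 2207). The counts below were not tested against that share. Of the 14 genes of the miR-17-92 group and its paralogues in the table, 1 was a member, Mir25. Of 14 neural microRNA genes, 1 was a member, Mir9-1. None was a member among 11 oligodendrocyte, 7 hedgehog-linked, 11 let-7 and 18 growth-linked microRNA genes. Mir25 (chr5:138165321-138165404, minus strand) was at 4.85, 2.86 and 1.07 FPKM in vehicle and 0.893, 1.15 and 0.321 FPKM with CT-179 at 24 h, and the groups overlapped (difference -1.04, SE 0.34, limma adjusted p = 0.49). Its host Mcm7 was at 110 to 112 FPKM in vehicle and 109 to 111 FPKM with CT-179, and fell by 2.52 from 24 h to 144 h in vehicle. Mir25 changed by -0.82 over the same time (adjusted p = 0.053). The sizes cannot be compared, since from its low 24 h levels Mir25 could not fall by 2.52 on the log2(FPKM + 1) scale.

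With no level rule, 439 microRNA genes of 29829 genes entered the fit. At 24 h, Mir5125 was again the 1 called lower (0.228%, against 0.117% of all genes), and Mir132, a neuronal microRNA gene at under 1 FPKM in every library, was the 1 called higher (against 0.0168%). At 144 h, 11 were called lower (2.51%, against 2.06% of all genes) and none higher (against 0.292%), so the share lower was near the background. Of the 11, Mir421, Mir8114 and Mir677 were not members.

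Among genes that make or act with microRNAs, 47 were in the table and 45 passed the level rule. Lin28a and Lin28b, which block let-7 maturation, did not. None of the 45 was called with CT-179 at 24 h, and at 144 h 1 was called lower and none higher, against 3.37% and 0.512% of all genes. It was Srrt, which links the cap-binding complex to the microprocessor, at 25.4, 25.5 and 25.3 FPKM in vehicle and 20.5, 19.4 and 19.1 FPKM with CT-179, a fall of 0.36 (limma adjusted p = 0.0034). Drosha and Dicer1, the hairpin-cutting enzymes, were singled out after their values were seen. At 144 h Drosha was at 32.7, 31.4 and 32.7 FPKM in vehicle and 30.9, 14.6 and 31.1 FPKM with CT-179, and Dicer1 at 7.70, 7.83 and 7.61 FPKM and 6.87, 2.39 and 6.41 FPKM, both lowest in the library that stood apart. Without that library, Dicer1 was called lower at 24 h (-0.197, limma adjusted p = 0.0016) and at 144 h (-0.190, adjusted p = 0.0025). Drosha was called lower at 24 h (-0.097, adjusted p = 0.013) but not at 144 h (-0.056, adjusted p = 0.13). In that fit, 22 of the 45 were called lower at 24 h (background as above, 14.1% of all genes), and 17 lower and 4 higher at 144 h, against 16.9% and 11.8% of all genes. From 24 h to 144 h in vehicle, 23 fell and 4 rose, against 32.4% and 34.1% of all genes. The 4 with the smallest p were Srrt (fell by 0.95), the cap-binding gene Ncbp1 (fell by 1.10), the splicing factor gene Hnrnpa1 (fell by 1.10) and the nuclease gene Snd1 (fell by 0.69), and the largest fall, named after the values were seen, was that of the export factor gene Ran (fell by 1.87).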

How the data were processed

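FPKM values of the cell table are as the authors deposited them. The submitters' processing notes name edgeR 3.28.1 and R 3.6, the aligner STAR 2.6.0c, the trimmer Trim Galore 0.5.0, the counter HTSeq 0.6.1p2 and the build mm10. Annotation and strand setting are not given in the sources used here. From FPKM, log2(FPKM + 1) was fitted here by limma 3.58.1 (R 4.3.3; means of 4 groups over the 12 libraries, trended empirical Bayes, two-sided) on the 12510 genes that reached 1 FPKM in 3 or more libraries. Benjamini-Hochberg adjustment ran over all of them, and calls needed an adjusted p under 0.05. The pair fit used log2(gene FPKM + 1) minus log2(host FPKM + 1). A test on simulated data covered the 24 h comparison over all genes, with rises only. It covered neither the pair fit nor a library that stands apart. The host is the containing gene, the same strand first and then the highest mean FPKM. No count test was run, since the values are FPKM. Members named are those called with CT-179 or against a host, the 8 largest changes each way with time in vehicle, the 8 highest, the edge of the level rule and those on the microRNA family lists. Members and lists were chosen with earlier results of these data known. Deviations of same-numbered libraries of the CT-179 groups at 24 h and 144 h were weakly correlated (r of 0.109, 0.241 and 0.138). Between treatments r ran from -0.13 to 0.06, so values of like size and opposite sign occurred. The labels do not say that the numbers pair libraries, and these values do not settle it. Alternatives were another pseudocount, no level rule, other scalings, separate fits, a replicate block and each library left out. The authors' deposited brain table, with FPKM, log2 fold changes, p-values and likelihood ratio scores of the authors' own comparison, held no gene typed as miRNA, and brain samples are not analysed here.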

Additional observations from a re-analysis of the deposited data

How the results depend on the processing

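No named member called with CT-179 changed direction under any alternative that tested it, but the counts of called members moved. The direction was fixed in part, since leaving out a library of a group outside the comparison leaves the estimate as it was. Members called higher with CT-179, none in the main fit, numbered 2 at 24 h in the separate fit. They numbered 4 at 144 h without CT-179 144 h replicate 1. Leaving out each library in turn gave 0 to 16 members called with CT-179 at 24 h, 3 to 23 at 144 h, 0 to 1 for the difference between times, 16 to 36 with time in vehicle and 11 to 28 with time under CT-179. For members against hosts it gave 0 to 10 at 24 h and 9 to 18 at 144 h. A pseudocount of 0.1 gave 2 members at 24 h and 5 at 144 h, and 1 and 7 against hosts. No level rule gave 8 of the 74 members at 144 h and 10 with time under CT-179. Separate fits of the groups compared, with fewer libraries and fewer genes tested, gave 17 at 24 h, 0 at 144 h, 37 with time in vehicle, 6 with time under CT-179, and 12 and 8 against hosts. Leaving out CT-179 144 h replicate 2 together with median-of-ratios scaling, chosen after seeing the data, gave 16, 23, 1, 36 and 28 for those 5 comparisons and 11 against hosts at 24 h. The share of all genes called is not given beside these counts. At 24 h it rose from 0.264% to 14.1% called lower when CT-179 144 h replicate 2 was left out. The counts therefore do not describe the members alone, and the cause of these differences was not tested.

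Deviations of same-numbered libraries had r of -0.13 to 0.06 between treatments and -0.01 to 0.03 between times in vehicle, and gave no sign of pairing by number there. Between times under CT-179 the block left the count near that without it (17 and 18). The replicate block gave 1 member at 24 h, 10 at 144 h, 26 with time in vehicle and 4 and 14 against hosts. For the named members the alternatives kept the call in 161 cases and lost it in 99, always in the same direction. At 144 h the block lost the calls of Mir1291, Mir6991 and Mir6993 (adjusted p of 0.070, 0.052 and 0.065). Brain alternatives gave no value, since no member was in that table. Depth limits precision, with at most 10 fragments in every library for 32 of 74 members.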
